A study of Rattus norvegicus with 9 samples.

Results

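The transcripts of oxidative phosphorylation were examined in rat aortic vascular smooth muscle cells given platelet-derived growth factor BB (PDGF-BB), with or without the inhibitor PTUPB. The set was taken by gene symbol and chromosome: nuclear genes named Nduf (a, b, c, s or v with a number), Sdha to Sdhd, Uqcr, Cox4 to Cox8 or Atp5, together with all genes of the mitochondrial (MT) chromosome. It held 126 of the 32623 genes in the table. Of these, 89 were nuclear, with 37 in complex I, 4 in complex II, 9 in complex III, 22 in complex IV and 17 in complex V, and 37 were on the MT chromosome. Ndufa4 and Ndufa4l2 carry complex I names, but the Ndufa4 protein is a complex IV subunit, and both were counted with complex IV.

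RNA-seq was performed on 9 libraries of primary wild-type cells at passages 4 to 8, in 3 groups of 3. All cells were deprived of serum for 12 h and then kept in 2% serum. DMSO alone was given to Control cells. The PDGF-BB group received the growth factor, a mitogen for smooth muscle, for 24 h, at a dose that the sample labels give as 10 ng/mL and the series design as 20 ng/mL. The PDGF-BB+PTUPB group received 0.5 µM PTUPB, an inhibitor of cyclooxygenase-2 and soluble epoxide hydrolase, for 2 h before the same growth factor. No group received PTUPB alone. Whether replicate libraries stand for separate cultures or animals is not stated, so p-values measure only the spread between libraries, which may be technical.

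Oxidative phosphorylation couples the oxidation of NADH and succinate to the synthesis of ATP in the inner mitochondrial membrane. Complexes I, III and IV pump protons as electrons pass to oxygen, complex II feeds electrons from succinate without pumping, and complex V, the ATP synthase, uses the proton gradient. Complexes I, III, IV and V are built from subunits of both the nuclear and the mitochondrial genome, and complex II is wholly nuclear-encoded.

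The short promoters of the nuclear members were searched for motifs of factors known to act on respiratory genes, because the members moved together in the comparisons that follow. RefSeq promoter entries (250 bases before to 50 after the gene start, assembly GRCr8) matched 73 of the 85 nuclear symbols. The palindromic core CGCATGCG of the site of nuclear respiratory factor 1 (NRF1) was present in 7 of these 73 promoters (9.59%) and in 1.81% of 27457 promoters of all genes. The ETS-type motif CCGGAAG, bound by the GABP factor among others, was present in 19 of 73 (26%) and in 9.22% of all promoters, counting both strands. The motif AAGATGGCG of the factor YY1 was present in 10 of 73 (13.7%) and in 1.93% of all promoters, counting both strands. Over the 19005 promoters of protein-coding genes alone, the shares were higher, at 2.24% for the NRF1 core, 11.2% for ETS and 2.29% for YY1. None of the 3 motifs contains another, and each was counted on its own.

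The 7 promoters with the NRF1 core were those of Atp5mc2, Atp5me, Atp5mg, Atp5pf, Atp5po, Ndufa11 and Uqcrc1, and the transcripts of all 7 were higher with PDGF-BB. Of the tested members with the other motifs, 13 of 18 with the ETS motif and 6 of 9 with the YY1 motif were higher. Of all 65 tested members with a promoter entry, 40 were higher, a share near that of members with the ETS or YY1 motif. The difference of the NRF1 group from the rest was not tested. Its Atp5 genes belong to complex V, where 13 of 17 tested members were higher. Not all members of complex V had this core, and those with and without it were not compared. The call of Atp5mc2 was lost under 7 of 20 alternative settings of the fit. The 120 bases before the start are shown for the 5 promoters whose match lay in that stretch, with the core in capitals, so that its place can be compared. The match began 55 bases before the start in Atp5mc2, 75 in Atp5me, 58 in Atp5po and 38 in Uqcrc1, and Ndufa11 held 2 overlapping matches 96 and 90 bases before its start. On GRCr8 the stretches lie at chr7:135678219-135678338 (- strand) for Atp5mc2, chr14:1464740-1464859 (+ strand) for Atp5me, chr11:44657484-44657603 (- strand) for Atp5po, chr9:1637494-1637613 (+ strand) for Ndufa11 and chr8:118468103-118468222 (+ strand) for Uqcrc1.
Atp5mc2: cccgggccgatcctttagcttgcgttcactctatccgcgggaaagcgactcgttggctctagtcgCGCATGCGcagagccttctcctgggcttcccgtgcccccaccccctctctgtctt
Atp5me: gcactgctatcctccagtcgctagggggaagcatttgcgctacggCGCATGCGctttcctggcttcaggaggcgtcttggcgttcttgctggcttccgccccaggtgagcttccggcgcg
Atp5po: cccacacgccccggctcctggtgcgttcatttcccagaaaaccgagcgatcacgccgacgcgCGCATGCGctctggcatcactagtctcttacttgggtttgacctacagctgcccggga
Ndufa11: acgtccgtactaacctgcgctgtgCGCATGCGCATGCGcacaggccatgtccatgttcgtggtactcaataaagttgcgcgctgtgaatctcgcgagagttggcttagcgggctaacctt
Uqcrc1: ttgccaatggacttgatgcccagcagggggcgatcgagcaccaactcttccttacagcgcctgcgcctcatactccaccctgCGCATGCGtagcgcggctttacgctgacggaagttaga
A match of letters does not show that a factor binds there. The transcript of Nrf1 itself changed by 0.11 ± 0.08 (log2 ± SE, adjusted p = 0.33) with PDGF-BB, and that of Gabpa, the DNA-binding subunit of GABP, by -0.22 ± 0.20 (adjusted p = 0.422).

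Counts summed to between 12729187 and 16911050 per library, so that 3 counts corresponded to between 0.177 and 0.236 CPM (counts scaled to library size). Of all genes, 11197 were tested, those with an FPKM (fragments scaled to exonic length and library total) of 1 or more in 3 or more libraries. Changes are log2 fold changes ± SE from edgeR's quasi-likelihood test, and a gene was called at a Benjamini-Hochberg adjusted p under 0.05 over all genes tested. Levels are the deposited FPKM, which carry no scaling between libraries beyond the library total. Smooth muscle markers (6 of 8 tested, with Tagln the highest) summed to an FPKM of 1717 to 2517 over the 9 libraries. Of 6 endothelial markers, 4 were at 0 in all libraries. Macrophage markers (2 of 5 tested, with Cd68 the highest) summed to 4.09 to 6.67, and cardiac and skeletal muscle markers to at most 1.9. Fibroblast markers, which smooth muscle cells in culture also express, summed to 1438 to 2435 in Control, 950.4 to 1346 with PDGF-BB and 1509 to 1742 with PDGF-BB+PTUPB. Their part in the results was not tested. In bulk RNA, a change in the number of cells of a type and a change in RNA per cell cannot be told apart.

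Of the 89 nuclear members, 78 were tested, and 12 of the 13 mRNAs of the MT chromosome and 2 longer non-coding RNAs were tested beside them. The 11 nuclear members that did not pass included isoforms known from striated muscle or testis. Cox7a1, the muscle isoform of subunit 7a, had 0 to 2 counts per library, Cox6a2, the muscle isoform of subunit 6a, had 0 to 3, and Cox8b, Cox8c, Cox7b2 and the pseudogene Cox6c-ps1 were at 0 in all 9 libraries. Cox6b2 had 0 to 2 counts. Ndufa1 and Ndufs6, subunits of complex I in all tissues, had at most 1 and 2 counts per library. Second rows of Ndufa10l1 (ENSRNOG00000062245) and Ndufv3 (ENSRNOG00000027593) had at most 3.2588 and 5 counts. Mt-co1, the catalytic core of complex IV, was listed at 0 in all 9 libraries, whereas Mt-co2 and Mt-co3 were among the most abundant transcripts. The 22 MT genes shorter than 100 bases were also at 0. The rows of Mt-co1, Ndufa1 and Ndufs6 give no usable level for these subunits, since the table does not state how reads that fit several places were counted.

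Per length, nuclear members spanned more than 2 orders in level. In Control the median FPKM of the 78 tested nuclear members was 52.2, against 10.7 for all tested genes, from 2.86 for Ndufa12 to 381.1 for Atp5f1b, the catalytic beta subunit of ATP synthase. The median was 71.5 with PDGF-BB and 59.2 with PDGF-BB+PTUPB. The 12 MT mRNAs lay higher, from 617.9 for Mt-nd6 to 8073 for Mt-co3 in Control, with medians of 2154 in Control, 1954 with PDGF-BB and 1942 with PDGF-BB+PTUPB. Nuclear members together took 0.477%, 0.574% and 0.519% of all counts in Control replicates 1 to 3. They took 0.695%, 0.674% and 0.815% with PDGF-BB and 0.56%, 0.585% and 0.593% with PDGF-BB+PTUPB. All 3 PDGF-BB libraries thus lay above all 6 others. The MT chromosome took 2.81% to 3.66% of counts in Control, 3.08% to 3.6% with PDGF-BB and 2.89% to 3.23% with PDGF-BB+PTUPB, and these ranges overlap.

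PDGF-BB raised nuclear transcripts of all 5 complexes and no MT mRNA was called. Of 78 nuclear members, 46 (59%) were higher than in Control and 0 were lower, where 17.3% of all tested genes were called higher and 15.8% lower. The median log2 change was 0.38 over the nuclear members, -0.02 over all genes and -0.09 over the 12 MT mRNAs. By complex, 13 of 17 members of complex V rose (median 0.51), 10 of 15 of complex IV (0.49), 5 of 9 of complex III (0.29), 2 of 4 of complex II (0.32) and 16 of 33 of complex I (0.32). With the length trend of each library in the fit, described further on, 11 of 17 members of complex V rose (median 0.32), 8 of 15 of complex IV (0.24), 4 of 9 of complex III (0.20), 1 of 4 of complex II (0.15) and 6 of 33 of complex I (0.14), where 17.3% of all genes were again called higher. The share in complex I was then near that of all genes. Differences between complexes were not tested. Among the 78, the size of the change followed neither the level (Spearman's rho 0.14 with mean FPKM) nor the length (-0.06), as a description over members that share their libraries. Of all genes called, 52.3% were higher, against 64.1% when libraries were scaled by totals only and 65.4% with limma on log2(FPKM + 1). The nuclear count was 57 and 59 under these scalings.

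**Figure D1:**
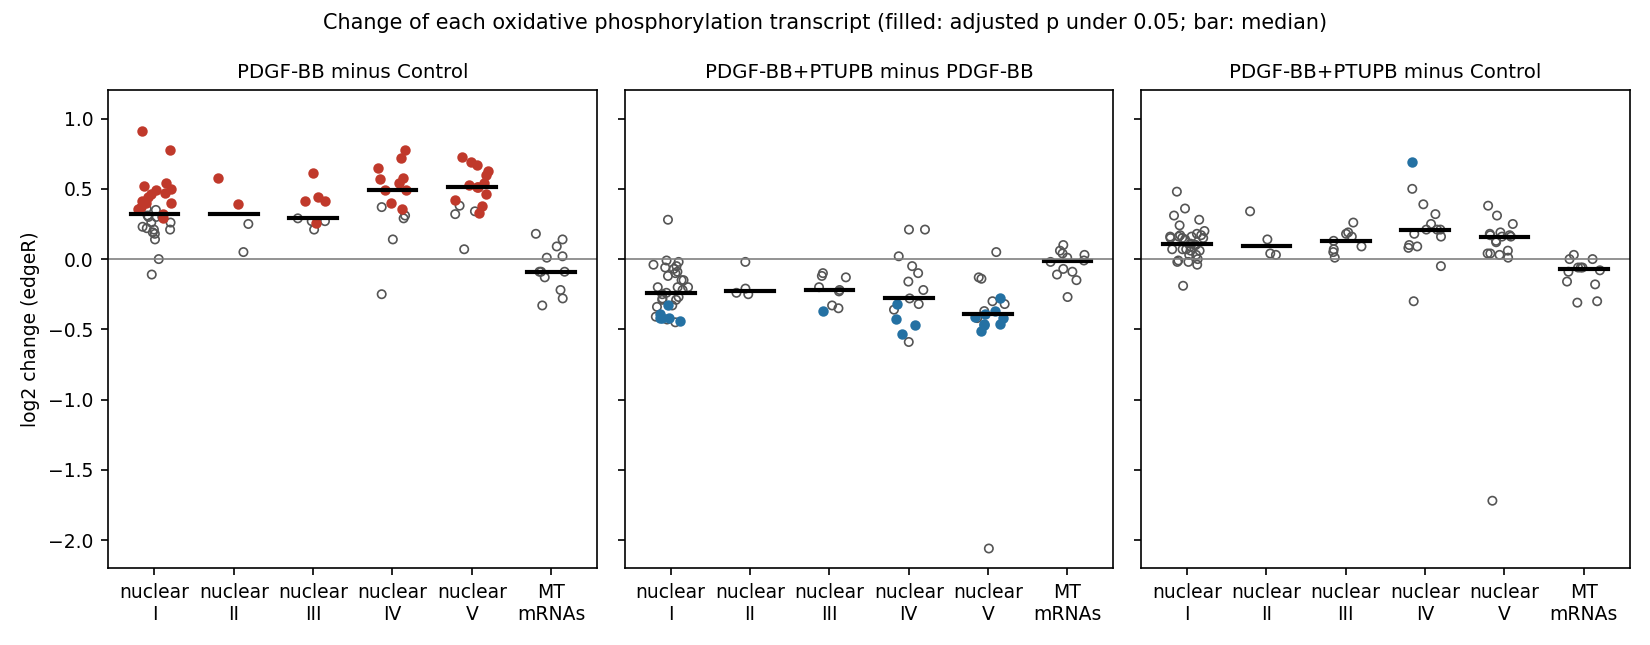
Log2 change of each tested member (points) by complex and genome, for the 3 comparisons, with filled points called at an adjusted p under 0.05 and bars at the median of each set. The nuclear points lie mostly above 0 with PDGF-BB (46 of 78 called) and mostly below 0 when PTUPB was added (20 of 78 called), and no MT mRNA is filled in any panel. The lone point near -2 is Atp5pb.

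Complex V had the largest share of its members called. Atp5f1b had an FPKM of 372.8, 385.4 and 385.1 in Control replicates 1 to 3, 601.5, 589.9 and 720.7 with PDGF-BB and 411.4, 442.8 and 451.5 with PDGF-BB+PTUPB. Every PDGF-BB library lay above every other library, and the rise was 0.67 ± 0.09 (edgeR adjusted p = 4.18e-04). Of the other F1 subunits, Atp5f1a, the alpha subunit beside it, rose by 0.42 ± 0.09, Atp5f1d (delta) by 0.54 ± 0.09 and Atp5f1c (gamma) by 0.33 ± 0.08. Atp5f1e (epsilon) changed by 0.07 ± 0.12 and was not called (edgeR adjusted p = 0.668).

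The c ring, which turns in the membrane, is encoded by 3 genes whose mature proteins are alike. Atp5mc3 stood at an FPKM of 135.3, 149.1 and 123.1 in Control and 196.5, 211.4 and 254.3 with PDGF-BB, a rise of 0.63 ± 0.10. Atp5mc2, of similar level, rose by 0.38 ± 0.12 (151.5, 217.1 and 167 in Control, 237.9, 228.8 and 265.1 with PDGF-BB), and its call was lost under 7 of 20 alternative settings. Atp5mc1, the least abundant of the 3, rose by 0.51 ± 0.12 from a mean FPKM of 45.7 ± 6.41 to 68.4 ± 7.17 (SD, n = 3). The groups of all 3 genes did not overlap between Control and PDGF-BB, as was so by CPM for 53 of the 78 tested nuclear members. The share without overlap was not counted over all genes.

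Stalk, membrane and regulatory members of complex V moved in the same direction. Atp5if1, the inhibitor of ATP hydrolysis by the enzyme, had an FPKM of 102.4, 132.6 and 123.2 in Control and 184.9, 183.4 and 253.3 with PDGF-BB, a rise of 0.73 ± 0.14 (edgeR adjusted p = 0.00309). Atp5po, the stalk subunit that confers oligomycin sensitivity, rose by 0.60 ± 0.10, Atp5pf of the same stalk by 0.51 ± 0.11, and the membrane subunits Atp5me and Atp5mg by 0.69 ± 0.17 and 0.53 ± 0.10. PDGF-BB replicate 3 was the highest library for each of these. Of the other stalk subunits, Atp5pd changed by 0.32 ± 0.11 and was not called (edgeR adjusted p = 0.0518), and Atp5pb gave no usable level: its counts were 19, 48 and 365 in Control, 29, 408 and 47 with PDGF-BB and 17, 28 and 79 with PDGF-BB+PTUPB. A second row of the same exonic length, LOC100911417, held 9, 13 and 10 counts in Control, 6, 5 and 19 with PDGF-BB and 11, 9 and 7 with PDGF-BB+PTUPB. Whether reads were split between these rows was not tested.

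In complex IV, Cox7b, a small subunit of the enzyme, had the smallest p of all members. Its FPKM was 78.7, 98.8 and 84.3 in Control, 144.6, 160.9 and 166.7 with PDGF-BB and 96.3, 106.4 and 114.6 with PDGF-BB+PTUPB. The PDGF-BB libraries stood apart from all others, and the rise was 0.78 ± 0.10 (edgeR adjusted p = 3.61e-04). Cox5a, which sits on the matrix side, rose by 0.57 ± 0.09, Cox6a1, the non-muscle isoform of 6a, by 0.54 ± 0.11, Cox6c by 0.58 ± 0.13, Cox7a2l2 by 0.65 ± 0.11 and Cox8a by 0.49 ± 0.11.

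Complex IV holds isoform pairs that differ between tissues. Cox4i1, the main form of subunit 4, had an FPKM of 325.6, 425.3 and 346 in Control and 405.6, 384.6 and 472.6 with PDGF-BB. These groups overlapped, and the change was 0.14 ± 0.11 (edgeR adjusted p = 0.357). Cox4i2, the form known from lung and low oxygen, stood far lower, at 7.91, 8.46 and 9.08 in Control, 13.2, 13.7 and 17.3 with PDGF-BB and 13.6, 12.6 and 10.5 with PDGF-BB+PTUPB. It rose by 0.72 ± 0.15 with PDGF-BB (edgeR adjusted p = 0.00409). As a share of Cox4i1, per length, it made 1.99% to 2.62% in Control, 3.25% to 3.66% with PDGF-BB and 2.64% to 3.56% with PDGF-BB+PTUPB, and the difference between the isoforms' changes was not tested. Cox7a2l, which joins complexes III and IV into supercomplexes, was at 106.6, 136.3 and 121.3 in Control and 104.6, 96.1 and 119.3 with PDGF-BB, a change of -0.25 ± 0.10 (edgeR adjusted p = 0.0784). It was 1 of only 2 nuclear members below 0, with Ndufa3 at -0.11 ± 0.40, named after its value was seen. Cox7a2l was called lower when the length trend of the libraries was fitted (-0.40, adjusted p = 0.00199) and when Control replicate 2 and PDGF-BB replicate 3 were left out (-0.27, adjusted p = 0.0167).

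**Figure D2:**
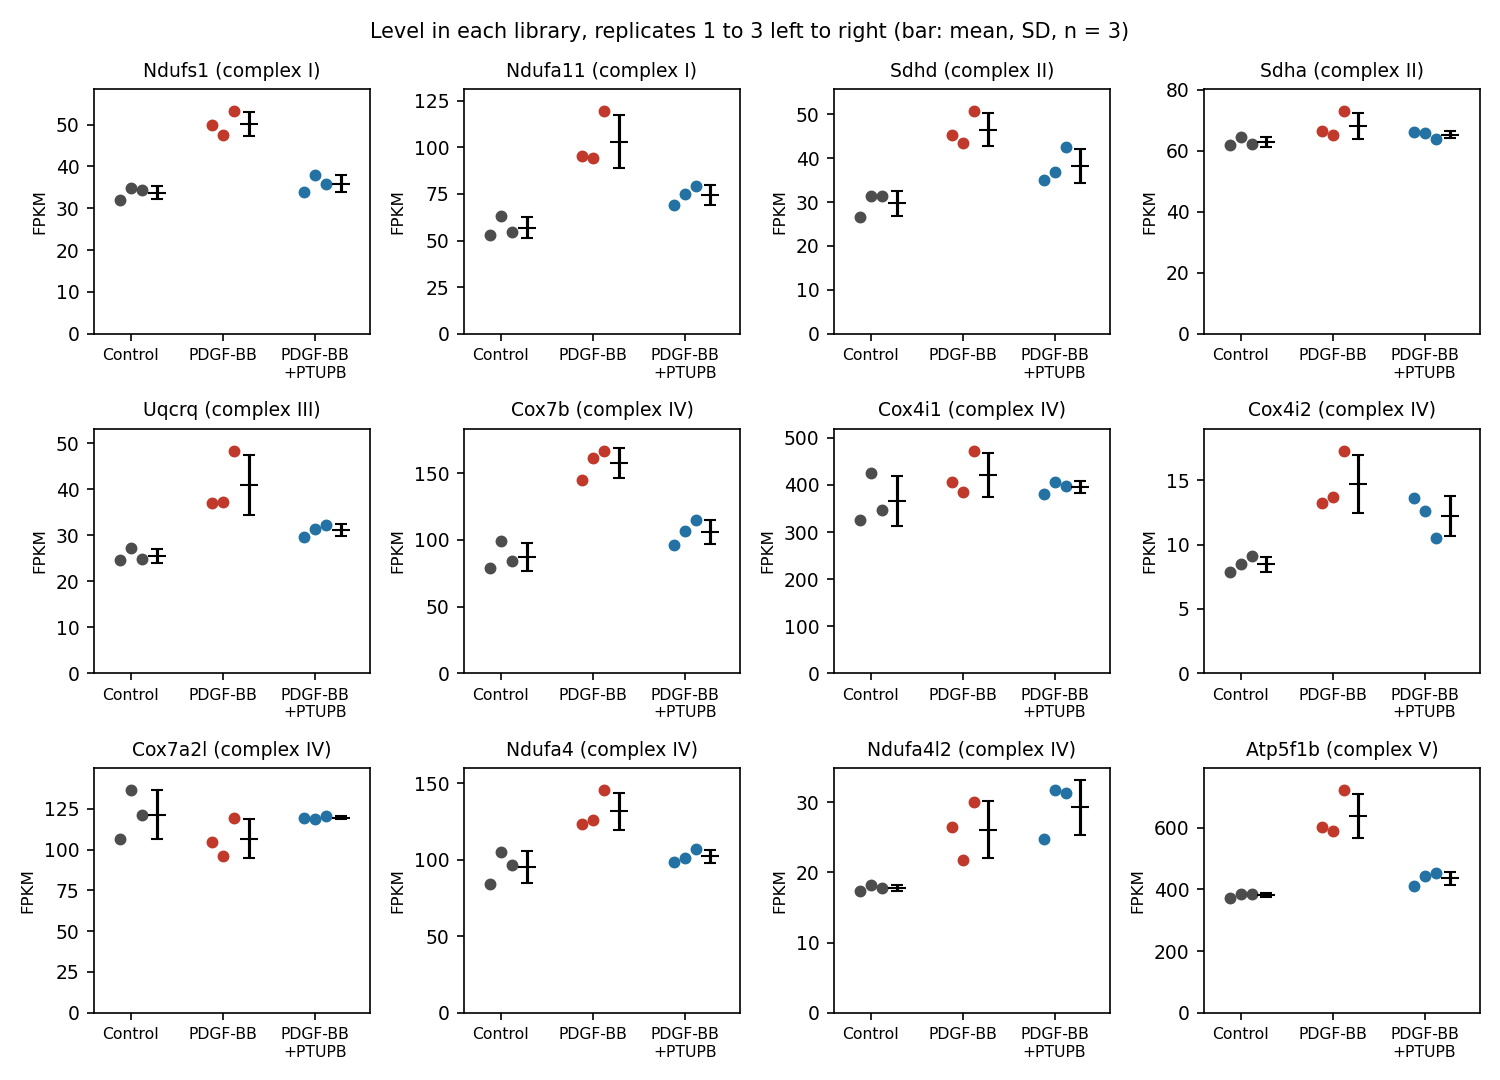
FPKM of 12 nuclear members in each of the 9 libraries, with replicates 1 to 3 from left to right in each group and the mean and SD (n = 3) beside them; each axis starts at 0. Atp5f1b, Cox7b, Ndufs1 and Ndufa11 are highest in all 3 PDGF-BB libraries, the Cox4i1 groups overlap, the 9 libraries of Sdha lie between 61.9 and 73, and Ndufa4l2 lies above Control in all 6 treated libraries.

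Complexes II and III held called and uncalled members side by side. The 4 subunits of succinate dehydrogenase gave a graded series. Sdhd, a membrane anchor, was at an FPKM of 26.5, 31.3 and 31.3 in Control and 45.3, 43.4 and 50.7 with PDGF-BB, a rise of 0.58 ± 0.11 (edgeR adjusted p = 0.00233). Sdhb, the iron-sulphur subunit, rose by 0.39 ± 0.11, a call lost under 6 of 20 settings, whereas Sdhc, the other anchor, changed by 0.25 ± 0.09 (edgeR adjusted p = 0.057). Sdha, the flavoprotein that oxidises succinate, was at 61.9, 64.7 and 62.1 in Control, 66.5, 65.2 and 73 with PDGF-BB and 66.1, 65.9 and 64 with PDGF-BB+PTUPB, a change of 0.05 ± 0.07 (edgeR adjusted p = 0.612). In complex III, Uqcrq, a small subunit near the cytochrome b core, rose by 0.61 ± 0.11, from 24.6, 27.3 and 24.8 to 37.1, 37.2 and 48.4. Uqcrc1, a core protein, rose by 0.41 ± 0.10, Uqcrc2, its partner, by 0.26 ± 0.07, and Uqcrfs1, the Rieske iron-sulphur protein, by 0.41 ± 0.11. The Uqcrfs1 call was lost in 3 of 20 settings. Uqcr11, a small subunit at an FPKM near the top of the complex, changed by 0.27 ± 0.11 and was not called (edgeR adjusted p = 0.0879). Of the 2 rows named Uqcrb, ENSRNOG00000032204 rose by 0.44 ± 0.11 and ENSRNOG00000024967 was not called at 0.29 ± 0.11 (edgeR adjusted p = 0.0583).

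In complex I, 3 of the 7 nuclear core subunits and 13 of the 26 accessory ones rose, where 17.3% of all tested genes were called higher. Ndufs1, the large iron-sulphur core subunit, was at an FPKM of 31.9, 34.9 and 34.4 in Control, 49.9, 47.5 and 53.2 with PDGF-BB and 33.8, 37.9 and 35.8 with PDGF-BB+PTUPB. The PDGF-BB libraries lay above all others and the rise was 0.50 ± 0.08 (edgeR adjusted p = 9.45e-04). Ndufa11, an accessory subunit of the membrane arm, was at 53, 63.2 and 54.8 in Control, 95.3, 94.3 and 119.4 with PDGF-BB and 68.9, 75.2 and 79.4 with PDGF-BB+PTUPB, and rose by 0.78 ± 0.11 (edgeR adjusted p = 6.64e-04). Ndufb10, also of the membrane arm, rose by 0.49 ± 0.08, Ndufb7 by 0.52 ± 0.12 and Ndufa5 by 0.54 ± 0.13. Ndufa12 had the largest change of all members, 0.91 ± 0.25, on an FPKM of only 2.59, 3.16 and 2.82 in Control and 6, 3.79 and 7.13 with PDGF-BB, and was not called in 6 of 20 settings. The most abundant nuclear member of the complex, Ndufb4, overlapped between groups and changed by 0.19 ± 0.13 (edgeR adjusted p = 0.293), and the next, Ndufb9, rose by 0.32 ± 0.11 but lost its call in 11 of 20 settings. By family, 7 of 10 Ndufb members rose, 6 of 11 Ndufa members and 3 of 10 Ndufs and Ndufv members. These counts are from the reported fit, and differences between families were not tested. With the length trend in the fit, 6 of 33 members of the complex rose, a share near that of all genes.

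**Figure D3:**
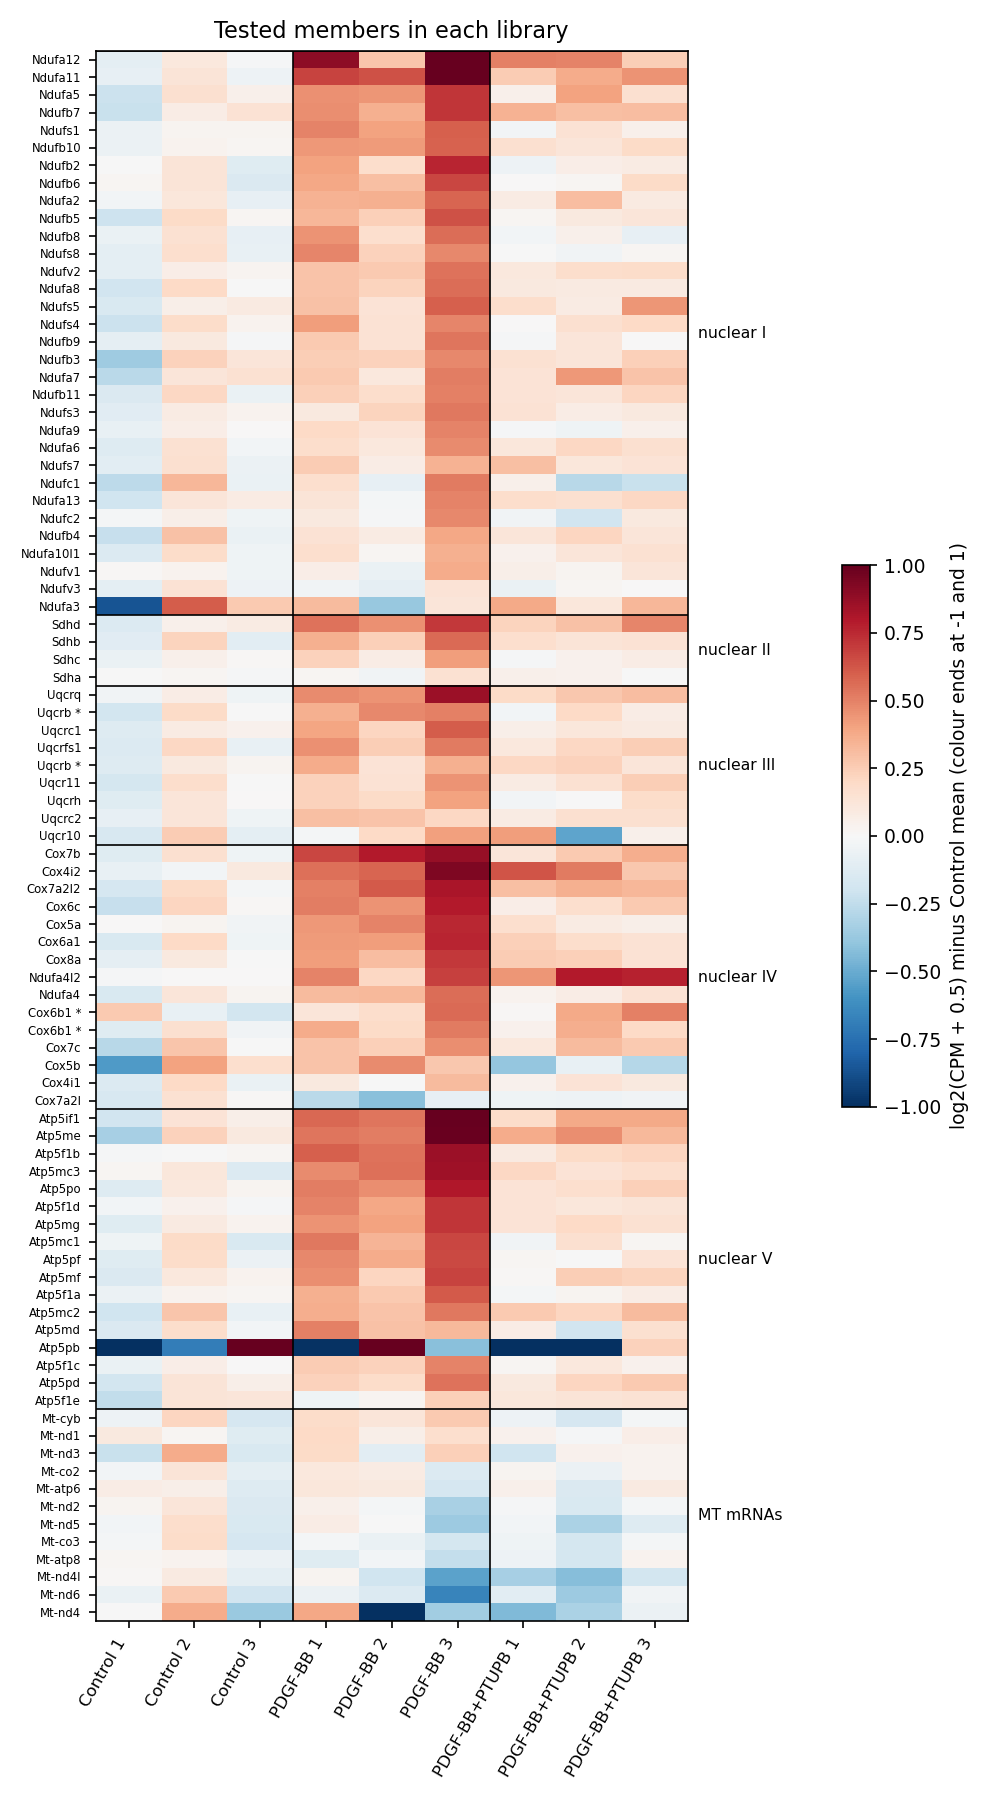
Heat map of the tested members except 1 of complex I that is not drawn (rows, by complex and then by change with PDGF-BB) in the 9 libraries (columns), as log2(CPM + 0.5) minus the Control mean of the member; an asterisk marks a symbol with 2 rows. The PDGF-BB columns are red over most nuclear rows, most deeply in replicate 3, and the MT rows at the bottom do not share this pattern.

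The nuclear members are short, and short transcripts as a class also had a median above 0. The tested nuclear members had a median exonic length of 708 bases, against 2336 for all genes tested. Over all 11197 genes the log2 change with PDGF-BB correlated with length at a Spearman's rho of -0.29, a correlation across genes that are not independent replicates. The 1233 genes of at most 1000 bases had a median of 0.20, with 282 called higher and 64 lower, whereas the 53 nuclear members in that class had a median of 0.40 and the 25 longer members 0.34. Among genes over 3000 bases the median was -0.15. Control replicate 2 (rho -0.39) and PDGF-BB replicate 3 (rho -0.38) carried an excess of short transcripts relative to their groups. With a length trend of each library in the fit, 30 nuclear members were called higher and 1 lower, Cox7a2l, and the median was 0.20. Without these 2 libraries, 51 were called higher and 1 lower. Leaving out Control replicate 1 alone gave 30 higher, and leaving out any other library gave 31 to 57. Atp5f1b, Cox7b, Cox5a, Ndufs1 and Atp5f1d were called in all 20 settings, as were most of the other calls followed over these settings. Those lost in any of them were Atp5mc2, Cox8a, Ndufa12, Ndufa4l2, Ndufb9, Sdhb, the Uqcrb row ENSRNOG00000032204 and Uqcrfs1.

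The MT chromosome showed no called change with PDGF-BB. Of its 12 tested mRNAs, 0 were called by edgeR, 0 had an unadjusted p under 0.05, and DESeq2 and limma also called 0. Mt-co3, the most abundant, was at an FPKM of 7810, 9288 and 7121 in Control, 8268, 8156 and 7407 with PDGF-BB and 7913, 7230 and 8109 with PDGF-BB+PTUPB, and the 3 groups overlapped. Mt-co2, the copper-binding subunit that accepts electrons from cytochrome c, changed by 0.02 ± 0.10, Mt-atp6, the proton channel of complex V, by 0.01 ± 0.11 and Mt-atp8 by -0.13 ± 0.08. Mt-cyb, the cytochrome b of complex III, had the highest estimate, 0.18 ± 0.11 (edgeR adjusted p = 0.224). Of the complex I mRNAs, Mt-nd1 changed by 0.14 ± 0.08, Mt-nd3 by 0.09 ± 0.16, Mt-nd2 by -0.09 ± 0.11, Mt-nd5 by -0.09 ± 0.13, Mt-nd4l by -0.22 ± 0.13 and Mt-nd6 by -0.28 ± 0.17. Leaving out Control replicate 2 gave 2 called MT genes, among them Mt-cyb, which was higher (0.30, edgeR adjusted p = 0.0238). Mt-cyb was also called higher without Control replicate 2 and PDGF-BB replicate 3 (0.26, edgeR adjusted p = 0.0257). Fitting the length trend gave 1 called MT gene, Mt-atp8, which was lower (-0.44, adjusted p = 0.0328). With a replicate block and the length trend, Mt-atp8 (-0.44, edgeR adjusted p = 0.0397) and Mt-nd4l (-0.51, edgeR adjusted p = 0.0411) were called lower.

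The ratio of MT mRNA counts to counts of nuclear members was 6.36, 6.18 and 5.31 in Control, 5.07, 4.68 and 3.71 with PDGF-BB and 5.43, 4.81 and 5.33 with PDGF-BB+PTUPB. All 3 PDGF-BB libraries lay below all 3 Control libraries, PDGF-BB replicate 3 was the lowest, and the PDGF-BB+PTUPB libraries overlapped both groups. The ratio is a description, with no test. PDGF-BB replicate 3 and Control replicate 2, at 3.71 and 6.18, are the 2 libraries with an excess of short transcripts, and the part of that excess in the ratio was not tested.

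Mt-nd4, a proton-pumping subunit of complex I, had the widest spread of the MT mRNAs. Its FPKM was 2054, 2759 and 1619 in Control, 2860, 766.3 and 1713 with PDGF-BB and 1569, 1707 and 2054 with PDGF-BB+PTUPB. PDGF-BB replicate 2 was the lowest of the 9, at 13685 counts. Mt-nd4l, which precedes it on the same transcript and overlaps it, was at 749.6, 650.6 and 505.5 with PDGF-BB, so that the ratio of Mt-nd4 to Mt-nd4l was 1.18 in PDGF-BB replicate 2 and 2.46 to 3.82 in the other 8 libraries. The change of Mt-nd4 was -0.33 ± 0.38 (edgeR adjusted p = 0.526). Mt-nd6 is encoded on the strand opposite the other MT mRNAs, and because the strand setting of the counting is not given, its reads cannot be told apart from those of RNA transcribed across it. The 2 longer non-coding RNAs, AY172581.24 (1571 bases) and AY172581.9 (958 bases), were highest in Control replicate 2, at 413.7 and 494.3, against 183.9 to 337.7 and 227.6 to 404.1 in the other libraries.

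**Figure D4:**
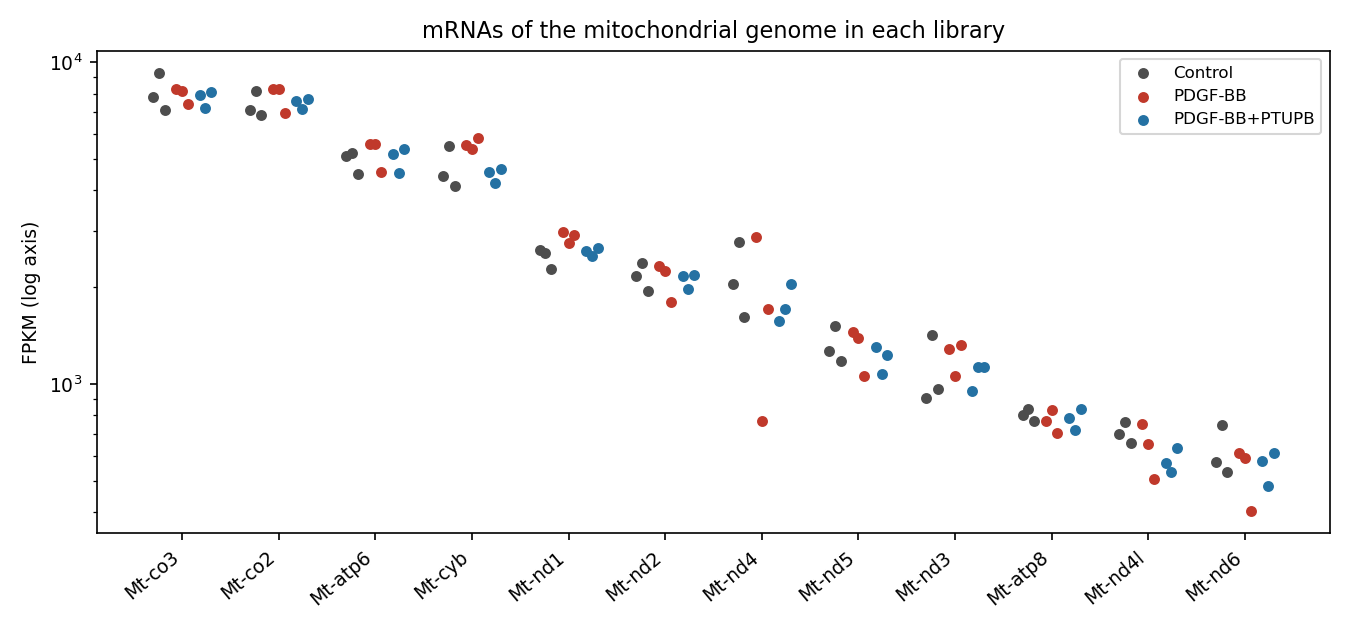
FPKM (log axis) of the 12 tested MT mRNAs in each library, ordered by mean level, with 3 points per group. The colours overlap for most genes, and the single low Mt-nd4 point, 766.3, is PDGF-BB replicate 2.

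PTUPB pretreatment lowered nuclear transcripts relative to PDGF-BB alone. Of 78 nuclear members, 20 (25.6%) were lower in PDGF-BB+PTUPB than in PDGF-BB and 0 were higher, where 10.0% of all tested genes were called lower and 8.28% higher. The median log2 change was -0.27 over the nuclear members, 0.01 over all genes and -0.02 over the MT mRNAs. The PDGF-BB libraries enter both this comparison and the one with Control, so that a high value in them raises the one and lowers the other. Of all genes called, 45.3% were higher, against 35% with scaling by totals only and 33.9% with limma on log2(FPKM + 1). These scalings called 27 and 28 nuclear members lower.

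By complex, 9 of 17 members of complex V fell (median -0.39), 4 of 15 of complex IV (-0.28), 1 of 9 of complex III (-0.22), 0 of 4 of complex II (-0.23) and 6 of 33 of complex I (-0.24). In complex V, Atp5f1b fell by 0.51 ± 0.09 on the log2 scale (edgeR adjusted p = 0.00509), Atp5f1d by 0.41 ± 0.09, Atp5f1a by 0.39 ± 0.09, Atp5mc1 by 0.47 ± 0.12 and Atp5mc3 by 0.46 ± 0.10. Atp5mc2 changed by -0.13 ± 0.12 (edgeR adjusted p = 0.474), at an FPKM of 215.9, 207.9 and 224.3 with PDGF-BB+PTUPB. In complex IV, Cox7b fell by 0.53 ± 0.10 (edgeR adjusted p = 0.00697), Cox5a by 0.47 ± 0.09 and Ndufa4 by 0.32 ± 0.10. The Ndufa4 call was lost in 8 of 20 settings, among them without PDGF-BB replicate 1 or 3, without Control replicate 3 and without each PDGF-BB+PTUPB library (adjusted p up to 0.145). Cox4i2 changed by -0.22 ± 0.14 (edgeR adjusted p = 0.319) and Cox4i1 by -0.05 ± 0.11. Cox7a2l had an FPKM of 119.5, 118.4 and 120.4 with PDGF-BB+PTUPB, which overlapped PDGF-BB replicate 3 (119.3), and changed by 0.21 ± 0.10 (edgeR adjusted p = 0.192).

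In complex I, Ndufs1 fell by 0.44 ± 0.08 (edgeR adjusted p = 0.00468), Ndufs8, a core subunit that carries iron-sulphur clusters, by 0.42 ± 0.10 and Ndufb10 by 0.33 ± 0.08. In complex III, the Uqcrb row ENSRNOG00000032204 fell by 0.37 ± 0.11 (edgeR adjusted p = 0.0407), a call lost in 10 of 20 settings. Uqcrq changed by -0.35 ± 0.11 (edgeR adjusted p = 0.0539) and Uqcrc1 by -0.33 ± 0.10 (edgeR adjusted p = 0.0502). None of the complex II subunits was called, with Sdhd at -0.24 ± 0.10 (edgeR adjusted p = 0.143), Sdhb at -0.25 ± 0.11, Sdhc at -0.21 ± 0.09 and Sdha at -0.02 ± 0.07. In these complexes and in complex V, the calls of Ndufs8, Ndufb10 and Atp5mc1 were each lost in 4 of 20 settings, that of Atp5f1a in 2 and that of Atp5mc3 in 1. Of the 4 complex II subunits, 2 had been higher with PDGF-BB, Sdhd and Sdhb.

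The number of members called lower depended on single libraries. It was 6 without PDGF-BB+PTUPB replicate 1, 6 without replicate 2 and 11 without replicate 3 of that group, 12 without PDGF-BB replicate 1 and 12 without PDGF-BB replicate 3. Leaving out each of the other libraries gave 16 to 29. Short transcripts as a class also had a median below 0 in this comparison. The 1233 genes of at most 1000 bases had a median of -0.13, with 143 called lower and 38 higher. Over all genes the change correlated with length at a Spearman's rho of 0.20. With the length trend in the fit, 19 nuclear members were lower and 1 higher, Cox7a2l (0.28, adjusted p = 0.0195), and the median was -0.15. These were 8 of 17 members of complex V, 5 of 15 of complex IV, 2 of 9 of complex III and 4 of 33 of complex I, where 11.3% of all genes were called lower, so that the share in complex I was near that of all genes. Atp5f1b, Atp5f1d, Cox5a, Cox7b and Ndufs1 were called in all 20 settings.

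None of the 12 MT mRNAs was called between PDGF-BB+PTUPB and PDGF-BB by edgeR, DESeq2 or limma, and 1 had an unadjusted p under 0.05 in edgeR. This was Mt-cyb, at 4570, 4210 and 4676 with PDGF-BB+PTUPB and 5523, 5364 and 5807 with PDGF-BB. The groups did not overlap, and the change was -0.27 ± 0.11 (edgeR adjusted p = 0.118). Fitting only these 2 groups called it (adjusted p = 0.0448), as did leaving out Control replicate 2 and PDGF-BB replicate 3 (-0.23, adjusted p = 0.0411). Leaving out Control replicate 2 alone also called it (-0.27, edgeR adjusted p = 0.0333).

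**Figure D5:**
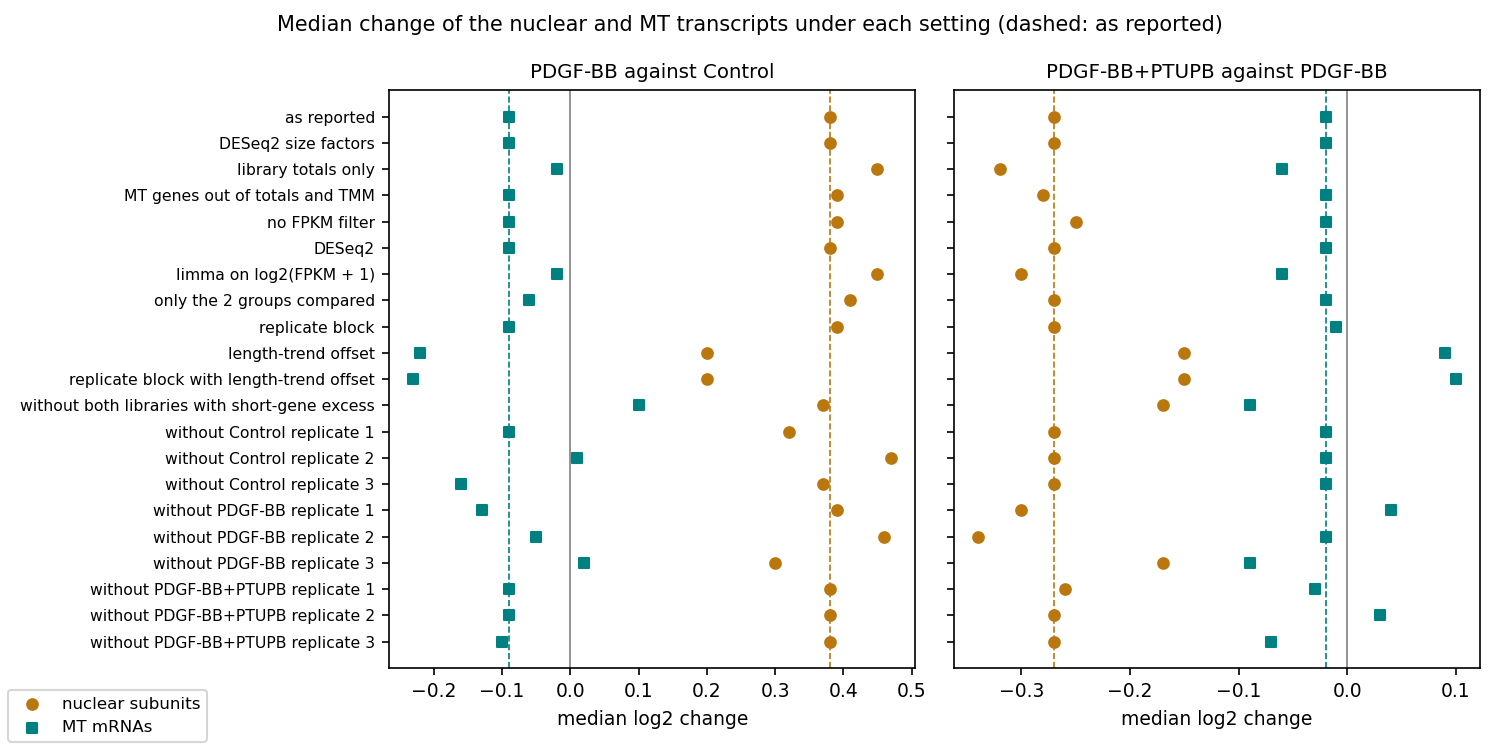
Median log2 change of the tested nuclear members (circles) and MT mRNAs (squares) under the reported fit and each of 20 alternative settings, for PDGF-BB against Control and for PDGF-BB+PTUPB against PDGF-BB. The nuclear median ranges from 0.20 to 0.47 and from -0.34 to -0.15, and the MT median lies on both sides of 0 in both panels.

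Between PDGF-BB+PTUPB and Control, 1 of 78 nuclear members was higher (1.28%) and 0 were lower, where 1.89% of all tested genes were called higher and 0.313% lower. The nuclear median was 0.14 and that of all genes -0.01. It was 0.06 with the length trend in the fit, and the 1233 genes of at most 1000 bases had a median of 0.09. Of the MT mRNAs, 0 of 12 were called by edgeR, DESeq2 or limma, with 1 at an unadjusted p under 0.05 in edgeR and in DESeq2 and 0 in limma. The called member was Ndufa4l2, a paralogue of Ndufa4 known to be induced under low oxygen. Its FPKM was 17.3, 18.2 and 17.8 in Control, 26.5, 21.8 and 30 with PDGF-BB and 24.8, 31.7 and 31.3 with PDGF-BB+PTUPB. All 6 treated libraries lay above Control. It rose by 0.49 ± 0.14 with PDGF-BB (edgeR adjusted p = 0.021) and by 0.69 ± 0.14 with PDGF-BB+PTUPB against Control (edgeR adjusted p = 0.0289), and changed by 0.21 ± 0.13 between the treated groups (edgeR adjusted p = 0.326). The PDGF-BB call was lost in 7 of 20 settings, among them with the length trend in the fit (0.30, adjusted p = 0.0752), without Control replicate 1 or 3 and without PDGF-BB replicate 1 or 3. The call of PDGF-BB+PTUPB against Control was lost in 8 of 20 settings, among them without Control replicate 1, 2 or 3, without PDGF-BB replicate 1 and without PDGF-BB+PTUPB replicate 2 or 3. Ndufa4 itself was at 83.8, 104.7 and 96.4 in Control, 123.1, 125.9 and 145.3 with PDGF-BB and 98.7, 101.1 and 106.8 with PDGF-BB+PTUPB. Per length, Ndufa4l2 made 17.4% to 20.7% of Ndufa4 in Control, 17.3% to 21.5% with PDGF-BB and 25.1% to 31.3% with PDGF-BB+PTUPB, and this share was not tested. Without Control replicate 2 and PDGF-BB replicate 3, 18 nuclear members were called higher than Control, where 1345 genes were called in all in place of 247.

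The other genes of the pathway were taken as lists by role. Their counts and calls are from the reported fit, and results under the alternative settings are not given for them. For reference, 17.3% of all tested genes were called higher and 15.8% lower with PDGF-BB. With PTUPB against PDGF-BB, 10.0% were called lower and 8.28% higher. Of 6 tested genes that exchange ADP, ATP and phosphate across the mitochondrial membranes, 6 rose with PDGF-BB and 2 fell with PTUPB against PDGF-BB. Slc25a5, an ADP/ATP carrier, rose from 122.1 ± 6.87 to 270 ± 37.1 CPM (mean ± SD, n = 3), a change of 1.15 ± 0.10 (edgeR adjusted p = 4.10e-05), and fell by 1.06 ± 0.10 to 129.8 ± 9.08 with PTUPB (edgeR adjusted p = 5.62e-04). Its paralogue Slc25a4 rose by 0.40 ± 0.09, Slc25a3, the phosphate carrier, by 0.48 ± 0.08, and the outer-membrane channel Vdac1 by 0.52 ± 0.09. The carrier of electrons to complex IV, cytochrome c (Cycs), rose by 0.39 ± 0.10 and fell by 0.60 ± 0.10 with PTUPB (edgeR adjusted p = 0.00448). Of 14 tested electron carriers and coenzyme Q synthesis genes, 4 rose and 2 fell with PDGF-BB. The number that fell is near the 15.8% of all tested genes called lower.

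Of 19 tested genes of the tricarboxylic acid cycle and pyruvate oxidation, 11 rose with PDGF-BB, and 9 fell and 1 rose with PTUPB against PDGF-BB. Over all tested genes, 17.3% were called higher with PDGF-BB, and 10.0% lower and 8.28% higher with PTUPB. Fh, fumarate hydratase, rose by 0.74 ± 0.08 (edgeR adjusted p = 1.46e-04) and fell by 0.63 ± 0.08 with PTUPB, and Mdh2, malate dehydrogenase, rose by 0.48 ± 0.08 and fell by 0.45 ± 0.08. The list also holds pyruvate dehydrogenase kinases, which inhibit entry into the cycle, and Pdk3 rose with PDGF-BB by 0.56 ± 0.10. Of 16 genes of import and cristae organisation, 8 rose with PDGF-BB and 4 fell with PTUPB, among them Micos10, a cristae junction protein (0.64 ± 0.12, then -0.58 ± 0.12). The single tested uncoupling protein, Ucp2, rose by 0.90 ± 0.23 with PDGF-BB.

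Assembly factors build the complexes without staying in them. With PDGF-BB, 3 of 15 rose for complex I, 0 of 3 for complex II, 3 of 6 for complex III, 4 of 18 for complex IV, with 1 lower, and 0 of 4 for complex V. With 17.3% of all tested genes called higher, the counts for complexes I and IV are near that share. Ndufaf6, an assembly factor of complex I, rose by 1.22 ± 0.18 and fell by 0.69 ± 0.18 with PTUPB. Coa5, of complex IV, fell by 0.43 ± 0.09 with PDGF-BB (edgeR adjusted p = 0.00401) and rose by 0.32 ± 0.09 with PTUPB. With PTUPB against PDGF-BB, 1 of 15 factors of complex I and 1 of 6 of complex III fell, and 1 of 18 of complex IV rose. Over all tested genes, 10.0% were called lower and 8.28% higher in that comparison. The difference in counts between factors and subunits was not tested.

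Of 17 tested genes for replication and transcription of mitochondrial DNA, 3 rose with PDGF-BB, 1 fell and 0 were called with PTUPB. Over all tested genes, 15.8% were called lower with PDGF-BB, and 10.0% lower and 8.28% higher with PTUPB. The number that rose is near the 17.3% of all tested genes called higher, as is that of the biogenesis regulators that follow. Tfam, which packages the MT genome and activates its promoters, rose by 0.38 ± 0.11 (edgeR adjusted p = 0.0236), Tfb1m, a methyltransferase of the mitochondrial ribosome, by 0.40 ± 0.13 and Slirp, which binds MT mRNAs, by 0.84 ± 0.16, whereas Polg, the mitochondrial DNA polymerase, fell by 0.29 ± 0.10. Of 6 tested regulators of mitochondrial biogenesis, 1 rose, Esrra, the nuclear receptor ERR-alpha, by 0.58 ± 0.11 (edgeR adjusted p = 0.00296). In PDGF-BB+PTUPB against Control, 0 genes of these 12 lists were called, where 1.89% of all tested genes were called higher and 0.313% lower.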

How the data were processed

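Per the submitters' processing notes, cutadapt 1.9.1, HISAT2 2.0.1 and HTSeq 0.6.1 were used on poly(A)-selected, paired-end libraries. The notes name mm10, a mouse build, whereas the gene identifiers are rat, so no coordinates of the deposited table are given. The deposited table holds an expected count and an FPKM per gene and library. The counts of 978 genes are not whole, and how they were made, the strand setting and the handling of reads with several matches are not given in the sources used here. The deposited FPKM were within 0.006 of values recomputed from counts and exonic lengths for 100% of entries.

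Columns were matched to samples by group letters and replicate numbers. Counts were rounded and fitted with edgeR 4.0.16 (R 4.3.3; TMM scaling, quasi-likelihood F test, 9 libraries, group only, 6 residual degrees of freedom), two-sided, in 3 comparisons. The biological coefficient of variation was 0.137. The fit was also run on simulated counts with known changes. Those counts held no length trend between libraries, so the run does not bear on that trend. Alternatives used DESeq2 1.42.0, limma 3.58.1 on log2(FPKM + 1), other scalings and filters, a smooth length trend per library as an offset, a replicate block, and left-out libraries.

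The members and lists were chosen with earlier results of these data known, so no p was computed over them. The 12 lists were assembly factors of complexes I to V, electron carriers and coenzyme Q synthesis, ADP/ATP and phosphate exchange, mitochondrial DNA replication and transcription, regulators of mitochondrial biogenesis, tricarboxylic acid cycle, import and cristae organisation, and uncoupling. Named members were, per comparison and complex, the 3 smallest p and 2 highest FPKM, called members with a log2 change of at least 0.5, MT mRNAs, isoforms and complex II subunits, and up to 4 called genes per list by smallest p. Atp5f1c, Atp5f1e, Atp5pb, Atp5pd, Uqcrc2, Ndufa3, the second Uqcrb row, the untested members, Nrf1 and Gabpa were named after their values were seen. Another member of complex I is counted in the totals and is not reported by name.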

Additional observations from a re-analysis of the deposited data

How the results depend on the processing

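Over 20 alternative settings the nuclear median stayed above 0 with PDGF-BB (0.20 to 0.47) and below 0 with PTUPB against PDGF-BB (-0.34 to -0.15), and the median of the MT mRNAs crossed 0 in both. With PDGF-BB against Control, nuclear members called higher numbered 30 with the length-trend offset and 26 with the replicate block and that offset, and 1 was called lower under each of these and without both libraries with a short-gene excess. MT genes called (non-coding RNAs included) numbered 1, 2 and 2 under these 3 settings. With PTUPB against PDGF-BB, 1 nuclear member was called higher under each of the same 3 settings, and 1 MT gene was called in the fit of only the 2 groups and 1 without both libraries. For PDGF-BB+PTUPB against Control, DESeq2 called 444 genes and the fit without both libraries 1345, nuclear members called higher were 0 with the replicate block, 0 with block and offset and 18 without both libraries, and 2 MT genes were called without both. The causes were not tested.

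Leaving out 1 library at a time gave, for PDGF-BB against Control, 30 to 57 nuclear members higher, 0 to 1 lower and 0 to 2 MT genes called. For PTUPB against PDGF-BB it gave 1002 to 2463 genes called in all, 6 to 29 nuclear members lower and 0 to 1 MT genes. For PDGF-BB+PTUPB against Control it gave 93 to 340 genes, 0 to 1 nuclear members higher and 0 to 1 MT genes. The replicate block called 42 nuclear members higher with PDGF-BB, 18 lower with PTUPB and 0 higher between PDGF-BB+PTUPB and Control. Whether same-numbered libraries share a culture or batch is not stated. Their deviations from the group mean correlated at -0.24 to 0.18, with 1 of 9 pairs over 0.1. In all, 1 of 9 libraries correlated best with its own number in both other groups. Deviations within groups of 3 sum to 0, so these values cannot decide the question. Of the named results that were not called, 38 changed sign in 1 or more settings, in 117 combinations of result and setting. At 3 libraries a group and a coefficient of variation of 0.137, changes near 0.3 were called for some members and not for others.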

Other observations

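Rows outside the symbol rule carried the orthology term of a nuclear member in 57 cases, of which 10 were tested and 30 were at 0 in all libraries. For Ndufs6, whose own row held at most 2 counts, LOC100912599 (639 bases) held 28, 108 and 25 counts in Control, 31, 26 and 21 with PDGF-BB and 19, 36 and 24 with PDGF-BB+PTUPB. Control replicate 2 was the highest of the 9 libraries. For Ndufa1, LOC108348144 (2604 bases) held 12, 27 and 59 counts in Control, 19, 24 and 24 with PDGF-BB and 15, 31 and 19 with PDGF-BB+PTUPB. These rows were chosen after their values were seen.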
